A study of Mus musculus with 18 samples.

Results

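The open chromatin of 9 mouse peripheral T-cell lymphomas (mPTCL) was set against that of 3 libraries of normal liver NKT cells. All libraries with these group names in the count table were taken, which made 12 of the 18 libraries of the series. The lymphomas carried a p53 knockout on a C57BL/6 background and arose after knockout T cells had been moved into syngeneic CD3-deficient hosts. They were sorted from liver, and the labels name no marker for that sort. The NKT cells were wild-type C57BL/6 liver cells positive for CD3 and for an alpha-galactosylceramide-loaded CD1d tetramer, although their titles carry the letters Sp. Wild-type C57BL/6 spleen T cells (CD3+, Thy1+) and NK cells (CD27-, CD11b+), with 3 libraries each, were used to place the differences. Each library came from 10000 sorted cells. Genotype and sort gate differed together between the lymphomas and the NKT cells and cannot be told apart. Nothing in the labels tells whether the libraries within a group stem from different animals, so the p-values measure the spread between these libraries, which may be technical. The labels do not give the deleted stretch of Trp53, so the peaks given to that gene check nothing; their sum was higher in the lymphomas and is described with chromosome 11.

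ATAC-seq inserts adapters with the Tn5 transposase wherever DNA is not wrapped tightly, so the number of reads in a peak measures how open a promoter or enhancer is. NKT cells are T cells with an invariant receptor for lipids on CD1d. They leave the thymus poised for rapid cytokine release, depend on the factors PLZF and EGR2 and on SLAM receptors, and carry several NK-cell receptors. Peripheral T-cell lymphomas are tumours of mature T cells, and some of them express NK-cell receptors and cytotoxic molecules.

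Library totals over the 61224 peaks of 500 bp ran from 670358 to 4844441 counts in the lymphomas and were 1433904, 8268896 and 9097014 counts in the NKT libraries. Spleen T libraries held 979441 to 2358023 counts and NK libraries 417107 to 596601 counts, so NK values are the least precise. Values are given as CPM, the count relative to the scaled library size, per peak or summed over all peaks that the deposited annotation gives a gene. A peak or gene was called higher or lower at a Benjamini-Hochberg adjusted p below 0.05 in edgeR's quasi-likelihood test. In these bulk samples fewer cells with an open site and less opening per cell cannot be told apart.

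A large part of the regulatory landscape differed. Of 61220 peaks tested, 42.6% were called. In the lymphomas 14225 of them were higher (23.2%) and 11871 lower (19.4%), relative to NKT cells. Of 20326 genes, 45.6% were called, with 5175 higher and 4096 lower. Groups that did not overlap at all, with every lymphoma on one side of every NKT library, were found at 8290 peaks above (13.5%) and 9658 peaks below (15.8%). Without NKT library 2 or 3 the number of peaks called was 14458 and 16747. The split between directions depended on the scaling: 54.5% of called peaks were higher with TMM, 79.2% with RLE scaling, 42.1% on cyclic-loess values, 80.3% with DESeq2 and 74.6% with library totals. The median log2 difference over all peaks was 0.27 with TMM, 0.74 with RLE scaling, 0.64 with library totals and −0.03 on cyclic-loess values. For genes, 55.8% of calls were higher with TMM, 66.5% with RLE scaling, 67.5% with DESeq2 and 65.1% with library totals, and the median gene difference was 0.06 with TMM, 0.19 with RLE scaling and 0.17 with library totals. Directions of single loci are therefore given mainly for those called under 3 scalings: TMM over the whole library, TMM within each chromosome, and cyclic loess, which evens out differences that follow the level of a peak. Such calls numbered 1723 peaks higher (2.81%) and 3065 peaks lower (5.01%).

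The direction of a call followed the level of the peak. Levels were means over all 18 libraries, 9 of them lymphomas, so the class and the direction of a peak draw on the same values. Whether weak peaks or those with few NKT counts, also among the gained sites below, entered the peak set through the lymphomas was not tested. In the weakest of 10 equal classes of peaks by mean level, 61.0% were higher and 0.49% were lower in the lymphomas. In the strongest class, 0.588% were higher and 61.5% were lower. The 6122 strongest peaks held 34.9 ± 3.18% of all counts in the lymphomas (SD, n = 9) and 44.9 ± 3.06% in NKT cells (SD, n = 3). Every lymphoma lay below every NKT library in this share, and the two-sided exact permutation p of 0.00455 was the smallest this design of 9 against 3 allows. Peaks without any count made up 0.0343% to 9.04% of the table in the lymphomas and 16.6%, 1.87% and 0.604% in the NKT libraries, and their part in this difference was not tested. When 3 scalings were required, the strongest class held 11 higher and 304 lower peaks, and the weakest class 1 higher and 15 lower peaks.

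**Figure D1:**
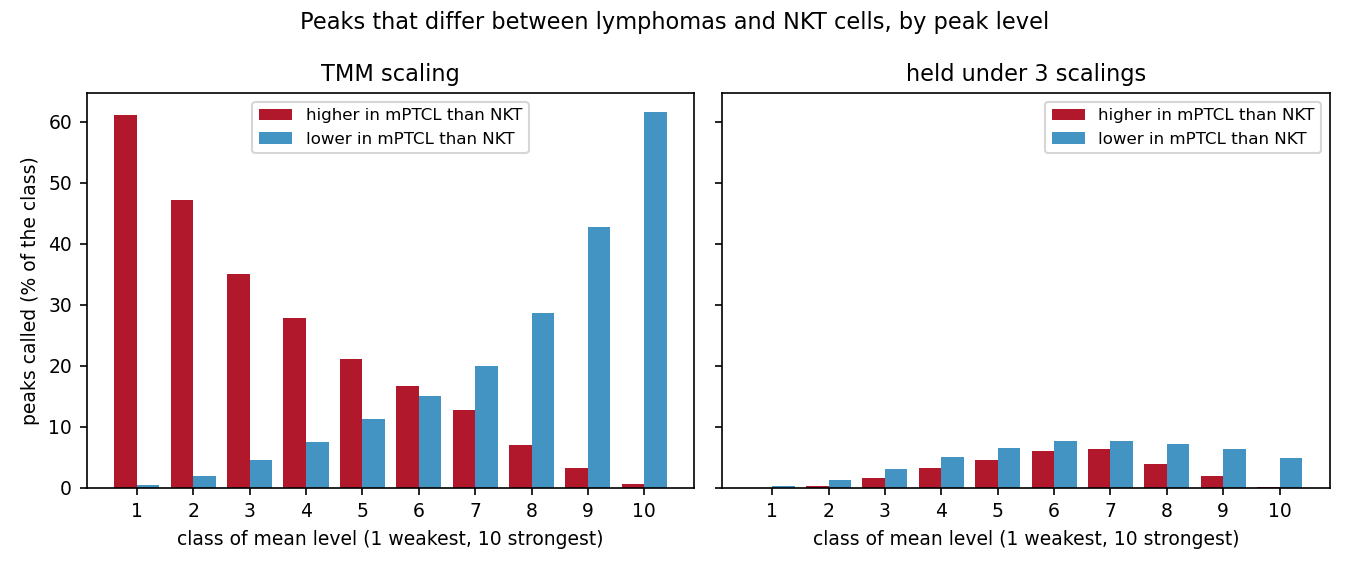
Share of peaks called higher (red) or lower (blue) in lymphomas than in NKT cells, in percent of each of 10 equal classes of peaks ordered by mean level over all libraries, with TMM scaling (left) and for calls held under 3 scalings (right). With TMM, calls are nearly all higher in the weakest class (61.0% against 0.49%) and nearly all lower in the strongest (61.5% against 0.588%), while the calls held under 3 scalings are most frequent in the middle classes.

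The classes of peaks differed in the same sense. Promoter peaks, which are the strongest class with a median of 17.7 CPM in lymphomas and 23.0 CPM in NKT cells, were called lower in 30.3% and higher in 12.3%. Intronic peaks, where many enhancers lie, were lower in 16.5% and higher in 26.0%, and intergenic peaks were lower in 13.3% and higher in 32.7%. Under 3 scalings the intronic class had the largest lower share of the 7 classes, with 7.18% lower (1394 peaks) and 2.83% higher, against 3.52% lower and 2.34% higher at promoters.

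Whole chromosomes shifted between the groups. The level of a chromosome was taken as its scaled count in each library relative to that library as a whole, with the NKT mean at 0 on the log2 scale. Chromosomes 15, 5, 17 and 11 stood higher in the lymphomas, by 0.95 ± 0.26, 0.58 ± 0.26, 0.38 ± 0.19 and 0.32 ± 0.17 (SD, n = 9). Chromosomes 13, 16, 18 and 10 stood lowest, at −0.73 ± 0.26, −0.67 ± 0.22, −0.54 ± 0.17 and −0.53 ± 0.12, and chromosomes 1, 2, 6, 7, 9 and 19 were also lower. These 14 of 19 chromosomes passed a two-sided exact permutation test with adjusted p between 0.0096 and 0.037. Chromosomes 3, 4, 8, 12 and 14 did not pass it, and the lymphomas differed among themselves there, from −0.19 to 0.49 on chromosome 3 and from −0.28 to 0.70 on chromosome 4. On chromosome 15 the lymphomas had a lowest level of 0.74, a median of 0.84 and a highest level of 1.57 (lymphoma 2), against −0.10 to 0.16 in the NKT libraries. Normal T libraries lay at 0.16 to 0.26 and NK libraries at 0.45 to 0.55 there, so part of that range also separates normal cell types. Normal NK libraries reached the lymphoma range on several other chromosomes. They lay at −0.64 to −0.16 on chromosome 19, −0.44 to −0.30 on chromosome 9 and 0.26 to 0.33 on chromosome 5. The lymphomas ran from −0.85 to −0.13, from −0.89 to −0.21 and from 0.25 to 0.98 there. No T or NK library reached the lymphoma range on chromosomes 10, 13, 15 or 16. Without NKT library 1 no chromosome passed the adjusted test, and without NKT library 2 or 3 10 did. With lymphoma 1, 3 or 6 left out, 7, 8 and 8 chromosomes passed.

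**Figure D2:**
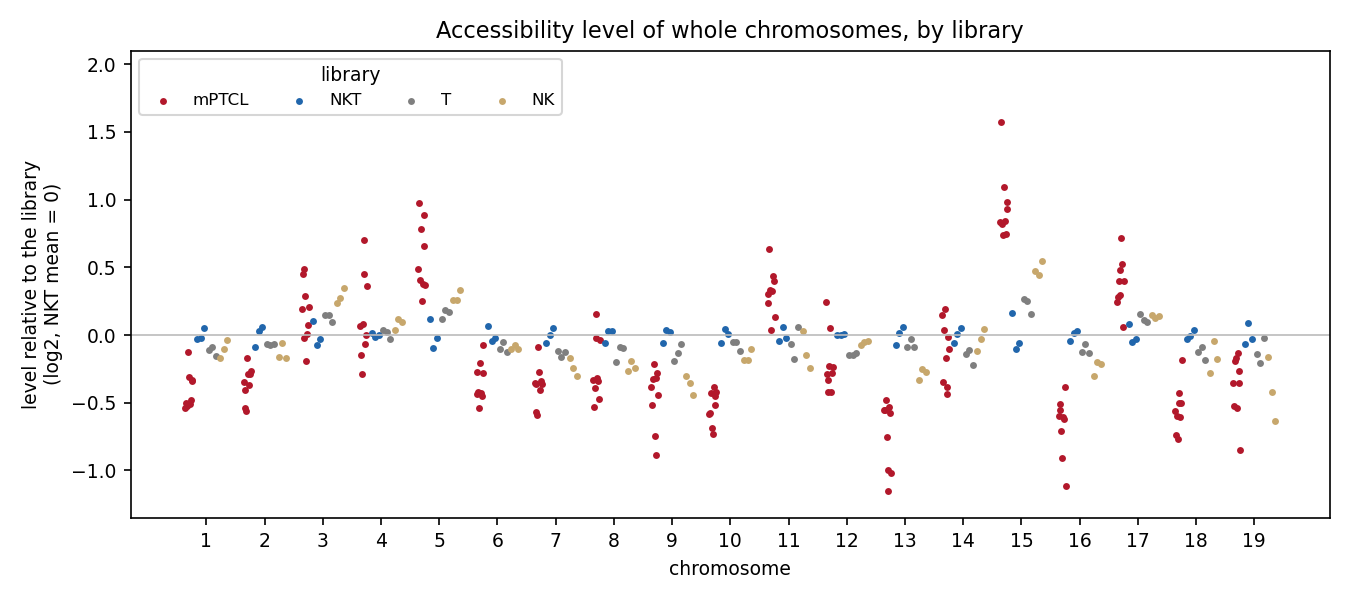
Level of each of the 19 autosomes in every library relative to the rest of that library, on a log2 scale with the NKT mean set to 0, and with lymphomas (red) left of NKT (blue), T (grey) and NK (brown) libraries. All 9 lymphomas lie above all NKT libraries on chromosome 15 and below them on chromosomes 10, 13 and 16.

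When each chromosome was scaled on its own, 38.9% of peaks were called, with 13081 higher (21.4%) and 10731 lower (17.5%), and 42% of genes, with 4864 higher (23.9%) and 3665 lower (18%). Both TMM scalings together called 10532 peaks higher (17.2%) and 8020 lower (13.1%). Without NKT library 2 or 3 the peaks called with TMM within each chromosome numbered 12341 and 14719, and without NKT library 1 the genes called with TMM within each chromosome numbered 5641. Of the 9271 genes called before, 6509 (70.2%) kept their call in the same direction, 2757 lost it and 5 were called in the opposite direction, and 2015 other genes were called. The genes called with chromosome scaling were shared in 76.3%. No peak reversed its call. Chromosome 15 changed most: with TMM 642 of its genes were higher and 14 lower, and with its own scaling 300 were higher and 244 lower. On chromosome 13, 83 genes were higher and 363 lower with TMM, and 162 were higher and 109 lower with its own scaling. The 5 genes that reversed all lay on chromosome 15. Myh9, which encodes the heavy chain of non-muscle myosin, had log2 fold changes of 0.49 with TMM and −0.38 with chromosome scaling, and Srebf2, a regulator of cholesterol synthesis, had 0.49 and −0.38. The others were Cbx7, a Polycomb subunit (0.52 and −0.37), Puf60, a splicing factor (0.48 and −0.39), and Slc38a2, an amino acid transporter (0.49 and −0.37). Without NKT library 2 or 3 none of these 5 was called with TMM (0.40 to 0.52), and some of the calls also lapsed without lymphoma 1, 2, 3, 5 or 7 or NKT library 1. Vdr, the vitamin D receptor gene on chromosome 15, lost its call (0.91 with TMM and 0.04 with chromosome scaling). Trp53 on chromosome 11, the gene named as knocked out, had 54.5 CPM at the lowest, 78.3 CPM at the median and 107 CPM at the highest in the lymphomas, against 34.97, 46.0 and 40.8 CPM in the NKT libraries. Its log2 fold change was 0.96 ± 0.25 SE with TMM and 0.48 with chromosome scaling, where it was not called (edgeR adjusted p = 0.0531). Promoter peaks given to both Wrap53 and Trp53 carried most of this sum, with lymphoma means of 43.6 and 32.2 CPM. Neither was called with TMM (edgeR adjusted p = 0.115 and 0.251). An exonic peak with a lymphoma mean of 6.81 CPM and 12 NKT counts in all was called higher with TMM. Runx1 on chromosome 16, a T-cell regulator, also lost its call (−0.83 with TMM and −0.30 with chromosome scaling).

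The deepest losses were single sites that were wide open in NKT cells and nearly closed in every lymphoma. Rules chose the 10 lower peaks with the largest change among those called under 3 scalings with groups that do not overlap. First among them was an intronic peak of Cd4, the coreceptor of helper T cells (chr6:124884987-124885487), with 1.85 CPM at the lowest, 5.57 CPM at the median and 18.7 CPM at the highest in the lymphomas, against 308, 290.1 and 273 CPM in the NKT libraries. T cells averaged 32.2 CPM and NK cells 5.20 CPM there, so the NKT libraries stood far above both other normal cell types. An intronic peak of Rin2, which encodes a RAB5 effector (chr2:145832394-145832894, mm10), had at most 5.10 CPM in the lymphomas (median 2.22), against 115, 118 and 109 CPM in the NKT libraries. Spleen T cells averaged 27.8 CPM and NK cells 6.34 CPM there. An intronic peak of Zbtb38, a zinc-finger protein that binds methylated DNA (chr9:96696307-96696807), had 0.265 to 4.88 CPM in the lymphomas (median 2.33), against 57.7, 67.2 and 71.1 CPM in the NKT libraries. Its log2 fold change was −4.71 ± 0.40 SE (edgeR adjusted p = 5.8e-10), and T cells stood in between with 30.1 CPM, while NK cells had 2.09 CPM. Introns of Taf3, a TFIID subunit (chr2:9997419-9997919), and of Gabpb1, a subunit of an ETS-family factor (chr2:126636395-126636895), gave the same picture. Taf3 had 0 to 2.12 CPM in the lymphomas and 24.0, 40.8 and 41.9 CPM in NKT cells (−4.64 ± 0.48 SE). Gabpb1 had 0 to 1.85 CPM in the lymphomas and 25.6, 35.2 and 26.6 CPM in NKT cells (−4.60 ± 0.50 SE). At the sites of Rin2, Zbtb38, Taf3 and Gabpb1 the lymphoma values lay below every T library.

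**Figure D3:**
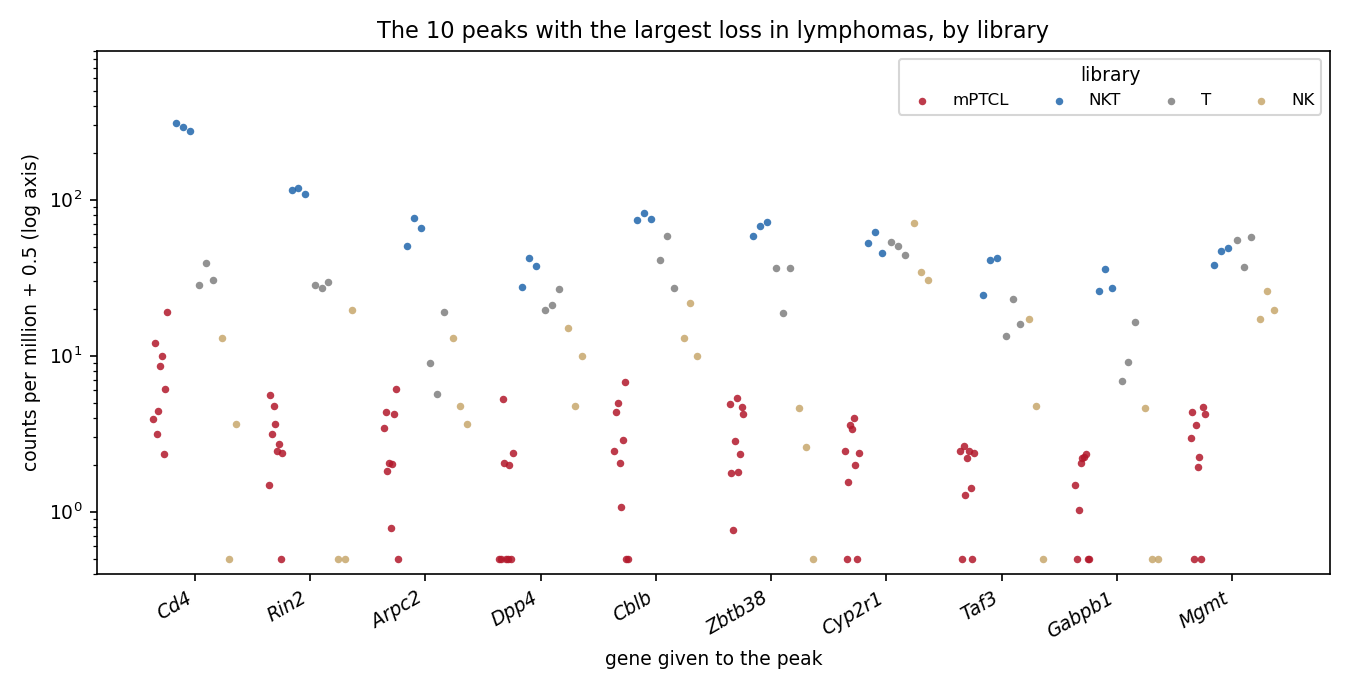
Accessibility of the 10 peaks with the largest loss, in CPM plus 0.5 on a log axis, with 1 point per library and lymphomas (red) left of NKT (blue), T (grey) and NK (brown) libraries at each gene. The NKT points lie between 24.0 and 308 CPM and no lymphoma exceeds 18.7 CPM; T libraries lie between the groups at most of the sites, and NK libraries reach the lymphoma range at several.

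Large losses at promoters were few. Of 20586 peaks tested at promoters or 5′ UTRs, 36 were at least 8-fold lower in the lymphoma mean than in the NKT mean, were called under 3 scalings and had groups that did not overlap. Without the demand of 8-fold, 4.5% of all peaks met these criteria in the lower and 2.27% in the higher direction. This set and the threshold of 8-fold were chosen after values had been seen, so the counts describe it and are no test. Of the 36, 33 had T and NK means that were both above the lymphoma mean, and 17 lay below each of the 9 normal libraries in every lymphoma. The promoter of Mgmt, which encodes the enzyme that removes methyl groups from guanine in DNA (chr7:136894342-136894842), had 0 to 4.18 CPM in the lymphomas (median 2.45), against 37.6, 46.2 and 48.3 CPM in the NKT libraries. T cells averaged 49.4 CPM and NK cells 20.3 CPM, so the site was open in all 3 normal cell types. The 5′ UTR peak of Cyp2r1, a vitamin D hydroxylase (chr7:114562248-114562748), had 0 to 3.49 CPM in the lymphomas, against 52.0, 61.4 and 45.2 CPM in NKT cells, with T and NK means of 49.1 and 44.8 CPM. Their log2 fold changes were −4.59 ± 0.46 SE (edgeR adjusted p = 1.7e-08) and −4.69 ± 0.36 SE (edgeR adjusted p = 9.4e-11).

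The closed set held the promoters of Irs2, the adaptor downstream of the insulin receptor, and of Insr, the receptor itself. The Irs2 promoter (chr8:11008632-11009132) had 1.06 CPM at the lowest, 3.92 CPM at the median and 42.0 CPM at the highest in the lymphomas, against 92.1, 93.3 and 106 CPM in the NKT libraries. Lymphoma 4 held the highest value and lymphoma 8 the next with 19.5 CPM, and T and NK cells averaged 73.8 and 81.8 CPM. The Map9 promoter, of a microtubule-associated protein (chr3:82357674-82358174), was closed in all lymphomas but lymphoma 9, which had 90.6 CPM; the median was 4.46 CPM, against 174, 146 and 148 CPM in NKT cells. Tle1, a Groucho corepressor, was far more open in T (213 CPM) and NK cells (125 CPM) than in NKT cells (28.0, 29.1 and 22.6 CPM), and the lymphomas had 0 to 7.47 CPM. Promoters of 2 T-cell surface proteins were in the set: Cd2, an adhesion receptor, with 0 to 6.61 CPM in the lymphomas against 41.6, 44.6 and 57.8 CPM in NKT cells, and Btla, an inhibitory receptor (chr16:45223967-45224467), with 0 to 3.11 CPM against 24.0, 26.7 and 20.8 CPM. NK cells had 3.88 CPM at Cd2 and 4.54 CPM at Btla. Lymphomas held on to single members of the set to different degrees: lymphoma 1 had none of the 36 above 20% of the NKT mean, lymphoma 4 had 9, lymphoma 8 had 7 and lymphoma 9 had 5, and 14 of the 36 stayed at or below 20% in all 9.

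**Figure D4:**
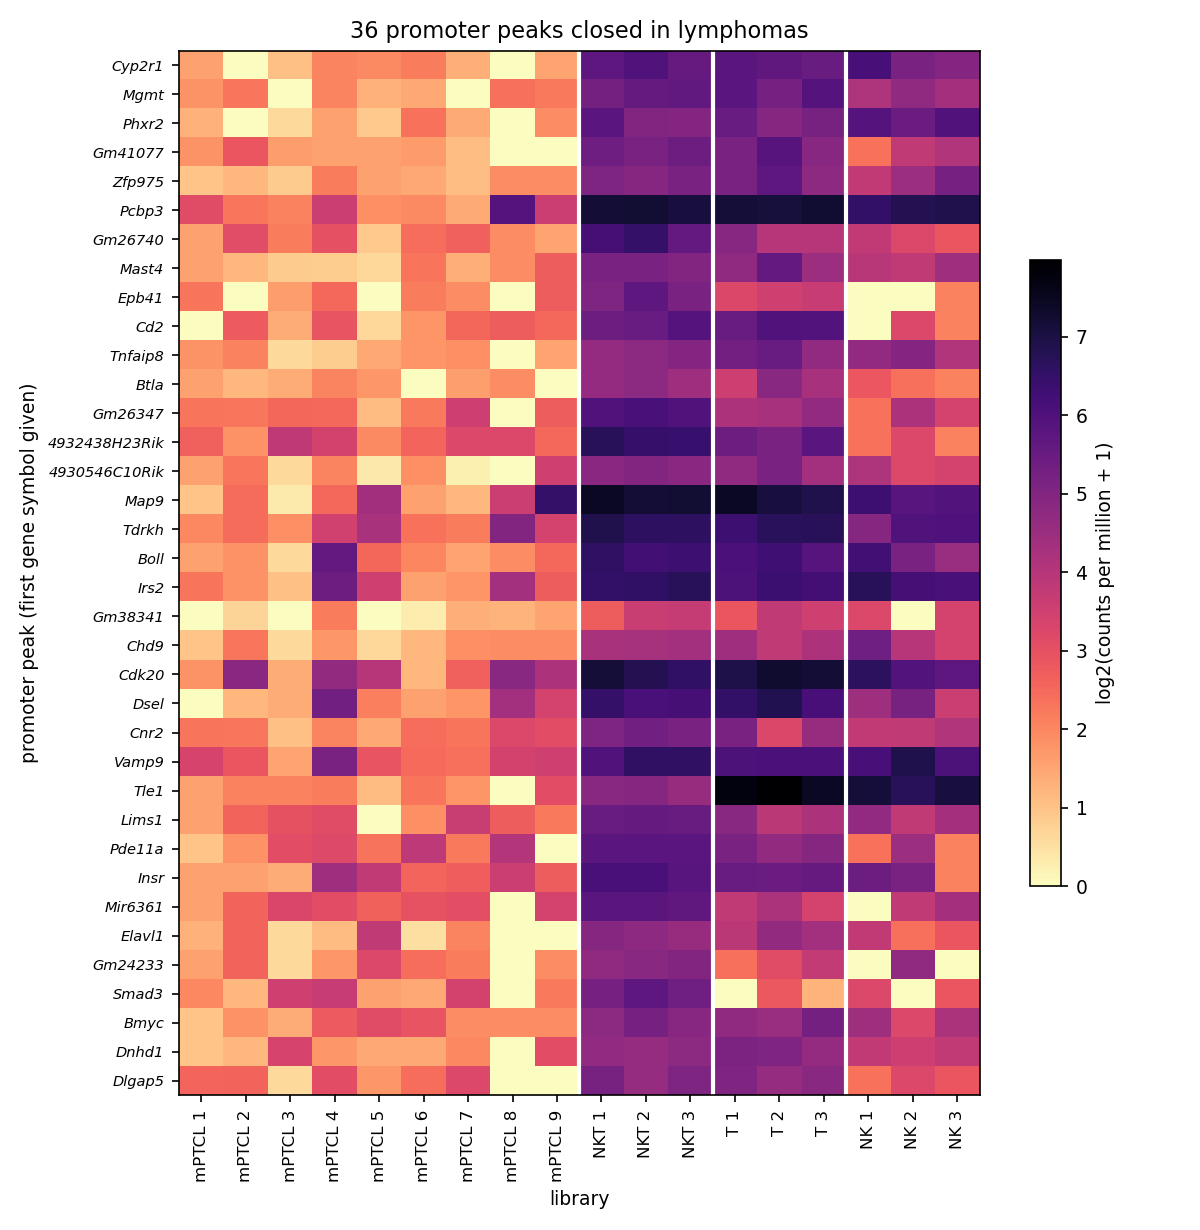
The 36 closed promoter peaks (down the page, named by their first gene) in every library (across), with lymphomas left of NKT, T and NK libraries; colour gives log2 of CPM plus 1. Lymphoma columns are pale and NKT columns dark throughout, with single exceptions such as Map9 in lymphoma 9 (90.6 CPM) and Pcbp3 in lymphoma 8 (58.5 CPM).

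The windows of 4 closed promoters are shown to let the base composition of such sites be read beside their values, from a CpG-dense island (Irs2) to a promoter with few CpG dinucleotides (Btla). They run from 250 bases before to 50 after a gene's start in RefSeq (GRCm38.p6), and each overlaps the peak described above. Capitals mark CpG dinucleotides. The Mgmt window lies at chr7:136894336-136894635 on the plus strand and holds 20 CpG, Irs2 at chr8:11008880-11009179 on the minus strand with 41 CpG, Map9 at chr3:82357822-82358121 on the plus strand with 16 CpG, and Btla at chr16:45224087-45224386 on the plus strand with 5 CpG.
Mgmt: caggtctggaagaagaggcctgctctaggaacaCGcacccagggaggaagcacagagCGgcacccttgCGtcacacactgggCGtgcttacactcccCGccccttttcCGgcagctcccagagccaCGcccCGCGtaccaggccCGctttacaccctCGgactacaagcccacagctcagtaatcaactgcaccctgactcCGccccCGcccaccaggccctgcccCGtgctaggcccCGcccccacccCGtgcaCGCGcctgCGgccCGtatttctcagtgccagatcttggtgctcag
Irs2: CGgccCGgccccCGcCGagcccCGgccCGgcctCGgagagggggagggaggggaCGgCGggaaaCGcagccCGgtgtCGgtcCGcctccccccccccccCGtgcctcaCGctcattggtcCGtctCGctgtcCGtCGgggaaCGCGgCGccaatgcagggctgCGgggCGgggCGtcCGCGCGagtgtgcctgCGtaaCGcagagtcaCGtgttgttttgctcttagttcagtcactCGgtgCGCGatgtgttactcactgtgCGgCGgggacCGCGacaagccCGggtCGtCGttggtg
Map9: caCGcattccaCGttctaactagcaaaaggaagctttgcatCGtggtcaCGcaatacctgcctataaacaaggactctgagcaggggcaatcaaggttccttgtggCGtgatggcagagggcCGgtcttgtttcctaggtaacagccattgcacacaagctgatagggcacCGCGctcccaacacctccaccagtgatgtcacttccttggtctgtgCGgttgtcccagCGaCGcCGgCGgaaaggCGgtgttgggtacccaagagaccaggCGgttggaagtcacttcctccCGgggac
Btla: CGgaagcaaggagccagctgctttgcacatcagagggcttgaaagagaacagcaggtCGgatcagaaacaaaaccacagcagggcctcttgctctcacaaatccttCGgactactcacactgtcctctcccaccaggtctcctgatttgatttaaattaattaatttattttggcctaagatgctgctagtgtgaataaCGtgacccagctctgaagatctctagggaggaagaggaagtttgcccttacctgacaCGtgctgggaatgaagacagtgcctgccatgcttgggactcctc

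By the mirror rule 120 promoter or 5′ UTR peaks were at least 8-fold higher in the lymphoma mean than in the NKT mean. At 8-fold the opened set is thus the larger. The promoter class alone, without 5′ UTR peaks and without the demands of 8-fold and no overlap, held 467 higher and 703 lower peaks under 3 scalings. Of the 120, 99 had T and NK means both below the lymphoma mean, 20 (16.7%) had an NK mean above it, and 23 lay above each of the 9 normal libraries in every lymphoma. On the 4 chromosomes that stood higher in the lymphomas (5, 11, 15 and 17) lay 61 of the 120 (50.8%), against 30.025% of all promoter and 5′ UTR peaks tested. The promoter of Akap1, which anchors protein kinase A at mitochondria (chr11:88864359-88864859), had 15.6 CPM at the lowest (lymphoma 3), 65.4 CPM at the median and 84.8 CPM at the highest in the lymphomas, against 3.20, 1.97 and 3.42 CPM in the NKT libraries. Its log2 fold change was 4.32 ± 0.48 SE with TMM and 4.05 with chromosome scaling, and T and NK means were 14.5 and 8.79 CPM. The promoter of Celf6, an RNA-binding protein (chr9:59577863-59578363), had 22.0 to 61.3 CPM in the lymphomas (median 39.2), against 3.20, 3.79 and 2.19 CPM in NKT cells, and all 9 lymphomas lay above all normal libraries.

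Some opened promoters had few counts in the normal cells. Klhl32, a kelch-like protein (chr4:24850726-24851226), had 12.8 to 30.7 CPM in the lymphomas (median 18.6), against 0, 1.21 and 2.05 CPM in NKT cells, with no count in any NK library and a T mean of 2.38 CPM. Chd5, a chromatin remodeller best known from neurons, had 11.5 to 28.4 CPM in the lymphomas, against 1.60, 1.97 and 3.01 CPM in NKT cells, also with no NK count. The receptor tyrosine kinase gene Ret had 12.4 to 57.1 CPM in the lymphomas, highest in lymphoma 8, against 1.60, 2.12 and 3.97 CPM in NKT cells and T and NK means of 6.72 and 2.07 CPM. Ppara, a nuclear receptor of lipid metabolism on chromosome 15, had 24.6 to 150.5 CPM in the lymphomas, against 8.81, 8.64 and 10.1 CPM in NKT cells (log2 fold change 3.17 ± 0.39 SE with TMM and 2.16 with chromosome scaling). T cells averaged 29.1 CPM at Ppara, above the lowest lymphoma, and NK cells 10.7 CPM. The lymphomas and NKT libraries did not overlap at any of these promoters.

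The windows of 3 opened promoters are given for comparison with the closed ones. In the same RefSeq windows the median number of CpG was 23 in 61 windows at opened promoters, 19 in 22 windows at closed promoters and 22 in 11169 windows at all promoter peaks tested; only 55 of the 120 and 15 of the 36 peaks had a window. The RUNX letters TGTGGTT (either strand) occurred in 0% of opened, 18.2% of closed (4 of 22) and 3.6% of all windows. The ETS letters CCGGAAG or AGGAAGT occurred in 8.2%, 18.2% and 26.8%. Other motifs were counted too: the MYC letters CACGTG occurred in 13.1%, 31.8% (7 of 22) and 10.7%, and the T-box letters GGTGTGA in 8.2%, 0% and 3.29%. Since 15 closed peaks gave 22 windows, some peaks entered with more than 1 window. These are descriptions of the windows, not of binding. The Akap1 window lies at chr11:88864537-88864836 on the minus strand with 40 CpG, Celf6 at chr9:59578087-59578386 on the plus strand with 31 CpG, and Klhl32 at chr4:24851075-24851374 on the minus strand with 27 CpG.
Akap1: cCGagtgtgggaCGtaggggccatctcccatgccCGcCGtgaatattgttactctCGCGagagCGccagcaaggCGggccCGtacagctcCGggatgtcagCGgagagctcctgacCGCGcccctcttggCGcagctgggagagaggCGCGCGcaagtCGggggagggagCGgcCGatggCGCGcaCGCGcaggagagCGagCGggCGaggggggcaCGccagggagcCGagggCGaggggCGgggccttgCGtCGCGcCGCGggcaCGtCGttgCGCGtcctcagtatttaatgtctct
Celf6: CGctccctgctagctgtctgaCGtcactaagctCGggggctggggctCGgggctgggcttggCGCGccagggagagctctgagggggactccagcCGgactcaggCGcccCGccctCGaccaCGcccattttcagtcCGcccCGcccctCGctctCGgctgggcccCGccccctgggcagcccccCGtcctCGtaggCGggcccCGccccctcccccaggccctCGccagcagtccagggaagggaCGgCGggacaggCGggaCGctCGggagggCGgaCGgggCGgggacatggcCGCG
Klhl32: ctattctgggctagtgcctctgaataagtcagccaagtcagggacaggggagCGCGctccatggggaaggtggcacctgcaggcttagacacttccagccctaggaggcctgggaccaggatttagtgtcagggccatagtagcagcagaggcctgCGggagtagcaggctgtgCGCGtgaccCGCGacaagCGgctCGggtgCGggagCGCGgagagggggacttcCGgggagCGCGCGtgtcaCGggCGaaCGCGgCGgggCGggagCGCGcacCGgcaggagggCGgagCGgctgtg

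Among gained peaks outside promoters, the largest changes were at sites with 0 to 4 counts in all NKT libraries together. An intergenic peak on chromosome 15 (chr15:59764716-59765216) had 3.92 to 24.9 CPM in the lymphomas (median 9.26) and no count in any NKT library. An intronic peak of Bahcc1 (chr11:120257915-120258415) had 5.57 to 26.0 CPM in the lymphomas and 2 counts in all NKT libraries together, and an exonic peak of Wdr70 (chr15:7885741-7886241) had 3.89 to 20.1 CPM in the lymphomas, again with 2 NKT counts. T and NK cells had 4.61 and 4.20 CPM at the intergenic peak, 1.91 and 7.37 CPM at Bahcc1, and 0 and 2.44 CPM at Wdr70. At others the NK mean lay above the lymphoma median. An intronic peak of Dagla, which makes an endocannabinoid (chr19:10279703-10280203), had 8.36 to 22.2 CPM in the lymphomas (median 12.3), 1 count in all NKT libraries and an NK mean of 19.3 CPM. An exonic peak of Tmtc1 (chr6:148294634-148295134) had 8.56 to 57.0 CPM in the lymphomas (median 19.8), 4 NKT counts and an NK mean of 52.1 CPM, and an intronic peak of B130034C11Rik (chr16:87501333-87501833) had 1.06 to 26.2 CPM in the lymphomas (median 14.1), no NKT count and an NK mean of 20.2 CPM. Fitted fold changes against so few counts depend on the prior count and are not given.

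Over whole genes, a rule named the 12 higher and 12 lower genes with the largest change among those with at least 2 peaks that were called under 3 scalings. Genes with 1 peak, such as Cd4, Cyp2r1 and Mgmt, had larger losses and are described by their peaks. Among the higher ones, Ptk7, a catalytically inactive receptor of Wnt signalling, had 12.5 to 35.1 CPM in the lymphomas (median 24.7), against 1.32, 0.581 and 1.87 CPM in NKT cells. Adcy8, an adenylyl cyclase, had 22.6 to 155 CPM in the lymphomas, against 2.64, 3.14 and 5.39 CPM in NKT cells (log2 fold change 4.07 ± 0.46 SE), and lies on chromosome 15, where the change was 3.11 with its own scaling. Tdrd9, a helicase of the germline piRNA pathway, had 16.98 to 293 CPM in the lymphomas, highest in lymphoma 1, against 0, 3.02 and 4.98 CPM in NKT cells. NK cells had 58.0 CPM at Tdrd9 and 31.6 CPM at Adcy8, within the lymphoma range. Among the lower genes, Raet1e, a ligand of the NK receptor NKG2D with close copies that could share reads, had 4.23 to 46.2 CPM in the lymphomas (median 13.003), against 120.1, 136 and 81.9 CPM in NKT cells. Nbea, a scaffold protein of vesicle traffic, had 0.929 to 14.99 CPM in the lymphomas, against 33.0, 41.6 and 42.8 CPM in NKT cells. Insr had 4.37 to 54.3 CPM in the lymphomas, against 109.5, 99.1 and 88.3 CPM in NKT cells (−2.37 ± 0.42 SE, edgeR adjusted p = 1.1e-04). T and NK means were 25.7 and 30.2 CPM at Raet1e, both within the lymphoma range. At Nbea they were 25.5 and 10.5 CPM, with only the NK mean in that range. At Insr they were 77.3 and 58.5 CPM, above every lymphoma. The lymphomas and NKT libraries did not overlap at any of the genes named here.

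Gene lists were counted member by member and are set beside the background of 25.5% of genes higher and 20.2% lower with TMM, 20.1% and 11.9% under both TMM scalings, 8.68% and 8% under 3 scalings, or 29.2% and 14.7% with RLE scaling, and beside the median over all genes of 0.06. This background was not matched for the level of the genes. Among 25 genes of proximal T-cell receptor signalling, 13 were lower and 0 higher, with a median log2 fold change of −0.52. Under both scalings 9 were lower and 0 higher, and under 3 scalings 7 and 0. The median was also negative with chromosome scaling, RLE scaling and library totals. RLE scaling called 10 lower and 3 higher, and cyclic loess 9 lower and 5 higher. Themis, a T-cell adaptor needed for thymic selection, had 0.929 CPM at the lowest, 12.9 CPM at the median and 49.0 CPM at the highest in the lymphomas, against 52.8, 68.2 and 70.3 CPM in the NKT libraries (−1.91 ± 0.41 SE, edgeR adjusted p = 7.7e-04). Lymphoma 1 was nearly closed and lymphoma 2 close to the NKT level. Prkcq, the protein kinase C that relays receptor signals to NF-kappaB, had 98.0 to 149 CPM in the lymphomas, against 239, 235 and 237 CPM in NKT cells. Rasgrp1, which activates RAS, had 63.9 to 106 CPM in the lymphomas, against 176, 161 and 167 CPM in NKT cells. The groups were far apart at both genes (−1.04 ± 0.17 and −1.07 ± 0.16 SE). Fyn, a kinase of the same pathway, had a change of −0.15 ± 0.19 SE and was not called.

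Of 15 genes of the receptor complex and coreceptors, 7 were lower and 2 higher, with a median of −0.77. Under both scalings 4 were lower and 2 higher, and under 3 scalings 3 and 1. The largest change was at Cd4, whose only peak is described above, with −5.17 ± 0.35 SE (edgeR adjusted p = 2.7e-10). The higher ones with TMM were Cd8a and Cd8b1, which encode the chains of the CD8 coreceptor. Cd8a had 7.39 to 26.4 CPM in the lymphomas (median 12.2), against 3.96, 1.74 and 0.933 CPM in NKT cells, and T cells averaged 14.4 CPM (2.97 ± 0.55 SE, edgeR adjusted p = 1.7e-04). All lymphomas lay above all NKT libraries and around the T-cell level, which holds CD4 and CD8 cells together. Cd3e, a signalling chain of the receptor, had 16.3 to 44.8 CPM in the lymphomas, against 68.0, 56.2 and 52.9 CPM in NKT cells. It was called with TMM (−0.99 ± 0.27 SE) and not with chromosome scaling (−0.61, edgeR adjusted p = 0.0585) or on cyclic-loess values (−1.18, limma adjusted p = 0.0761). Its T mean was 34.3 CPM and its NK mean 4.84 CPM.

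Of 22 genes that restrain T-cell activation, 12 were lower and 1 higher with TMM, 5 and 0 under both scalings and 4 and 0 under 3 scalings, and the median was −0.47. Cblb, a ubiquitin ligase, had 102 to 299 CPM in the lymphomas (median 247), against 527, 525 and 513 CPM in NKT cells, and T and NK means of 499.8 and 554 CPM. Its log2 fold change was −1.24 ± 0.23 SE with TMM and −0.73 with chromosome scaling. The phosphatase genes Ptpn22 and Ptpn2 had 94.995 to 175 CPM and 68.0 to 141 CPM in the lymphomas, against 236 to 278 CPM and 174 to 202 CPM in NKT cells. The higher gene was Socs3, a cytokine-signal inhibitor on chromosome 11, whose call (0.64) was lost with chromosome scaling (0.16) and without lymphoma 2, 3, 4 or 7 or any NKT library (0.52 to 0.70).

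Of 25 genes that mark the NKT lineage, 12 were lower and 4 higher (10 and 2 under both scalings, 9 and 0 under 3 scalings; median −0.56). Zbtb16, which encodes PLZF, the lineage factor of NKT cells, had 2.72 CPM at the lowest, 8.60 CPM at the median and 30.2 CPM at the highest in the lymphomas, against 56.1, 67.5 and 50.7 CPM in the NKT libraries (−2.27 ± 0.37 SE, edgeR adjusted p = 4.6e-05). T cells averaged 14.976 CPM and NK cells 68.2 CPM there, and the change was not called in the smaller peak table (−1.13). Slamf1, one of the SLAM receptors that NKT cells need in the thymus, had 8.82 CPM at the lowest, 31.3 CPM at the median and 50.8 CPM at the highest in the lymphomas, against 85.8, 96.3 and 99.2 CPM in the NKT libraries (−1.54 ± 0.28 SE, edgeR adjusted p = 1.2e-04). Egr1, a factor induced by receptor signals, had 109 to 194 CPM in the lymphomas, against 346, 309.6 and 321 CPM in NKT cells. Tcf12, an E protein needed for NKT development, had 36.3 to 71.4 CPM in the lymphomas, against 111, 112 and 110.3 CPM in NKT cells, and T cells averaged 51.8 CPM. Etv5, an ETS-family factor, had 76.4 to 135 CPM in the lymphomas, against 218, 169 and 168 CPM in NKT cells (−0.95 ± 0.17 SE). The T means of 222 CPM at Egr1 and 152 CPM at Etv5 lay above every lymphoma. Gata3, a regulator of T-cell identity, had −0.65 ± 0.19 SE with TMM and −0.40 with chromosome scaling (edgeR adjusted p = 0.0518).

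**Figure D5:**
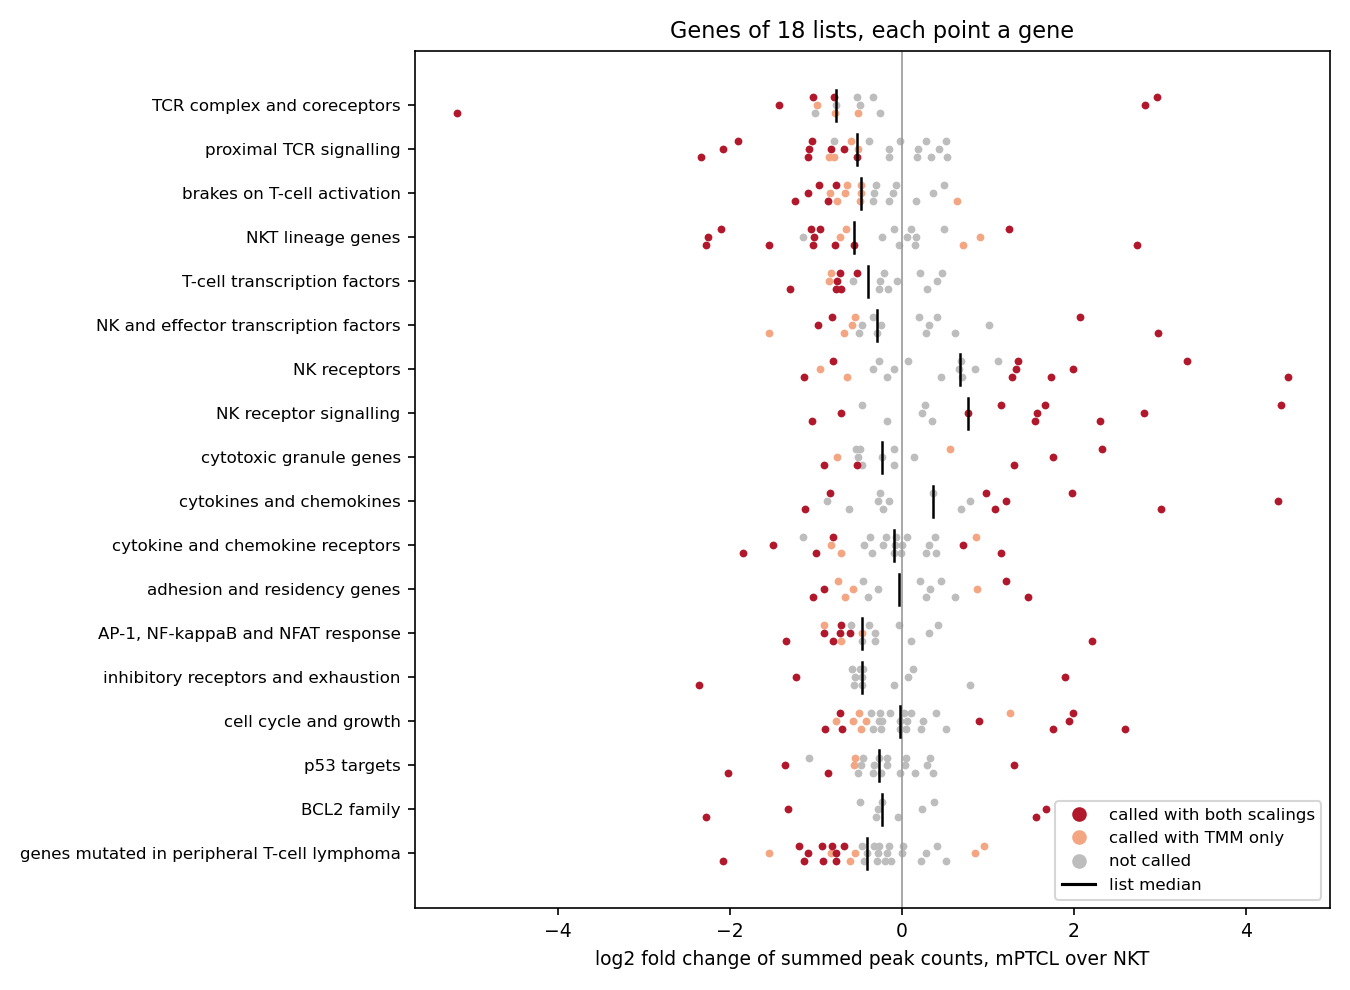
Log2 fold change (mPTCL over NKT) of each measured member of 18 gene lists, with 1 point per gene, coloured by whether it was called with both TMM scalings (red), with TMM only (orange) or not (grey), and a bar at the list median. NK receptors and NK receptor signalling have medians of 0.68 and 0.77, and the T-cell receptor, brake, NKT, T-factor and AP-1 lists have medians between −0.77 and −0.39.

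Transcription factors of T cells had 8 lower and 0 higher among 18, with a median of −0.39. Under both scalings 6 were lower and 0 higher, and under 3 scalings 3 and 0. RLE scaling called 7 lower and 2 higher, and cyclic loess 5 lower and 3 higher. Stat4, which transmits IL-12 signals, had 143 to 261 CPM in the lymphomas, against 304, 329 and 300.2 CPM in NKT cells (−0.75 ± 0.16 SE). T cells averaged 138 CPM there, below the lymphoma median of 181 CPM. Among 19 NK and effector factors, 6 were lower and 2 higher (2 and 2 under both scalings). Irf2 had 71.1 to 132 CPM in the lymphomas, against 195, 210.4 and 193 CPM in NKT cells. Runx3, a factor of cytotoxic lineages, had 226 to 472 CPM in the lymphomas and 253, 282 and 255 CPM in NKT cells, and was not called (0.31 ± 0.20 SE). Ikzf2, the Helios gene, spanned the widest range: lymphomas 1, 2, 3 and 6 had 0.929, 7.49, 5.34 and 4.86 CPM, lymphomas 5 and 9 had 108 and 129.8 CPM, and the NKT libraries had 116, 128 and 124 CPM. Its adjusted p of 0.048 by edgeR passed with all libraries and lay between 0.052 and 0.12 without lymphoma 1, 2, 3, 4, 6 or 7 or any NKT library, and at 0.0751 with chromosome scaling.

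Of 22 NK receptor genes measured, 7 were higher and 4 lower (7 and 2 under both scalings; 5 and 2 under 3 scalings; median 0.68). Klrd1, the CD94 chain that pairs with NKG2 receptors, had 34.0 to 68.3 CPM in the lymphomas (median 49.0), against 10.6, 25.0 and 21.6 CPM in NKT cells, and an NK mean of 43.5 CPM (1.33 ± 0.28 SE, edgeR adjusted p = 6.2e-04). Klre1, a neighbouring receptor gene, had 41.8 to 103 CPM in the lymphomas, against 25.7, 34.6 and 31.6 CPM in NKT cells. Itgax, the integrin CD11c found on NK and myeloid cells, had 26.2 to 69.2 CPM in the lymphomas, against 9.90, 14.6 and 16.7 CPM in NKT cells. At these genes every lymphoma lay above every NKT library and the NK mean lay within the lymphoma range. Cd96, an adhesion receptor of T and NK cells, was lower, with 12.04 to 36.1 CPM in the lymphomas against 46.8, 55.3 and 60.1 CPM in NKT cells, and an NK mean of 77.9 CPM. Slamf7 was lower too, with 80.2 to 144 CPM in the lymphomas against 189, 219 and 207 CPM in NKT cells.

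Of 15 signalling molecules downstream of NK receptors, 8 were higher and 2 lower, the same counts as under both scalings (3 and 1 under 3 scalings; median 0.77). Syk, a kinase that is scarce in mature T cells, had 4.64 to 19.4 CPM in the lymphomas (median 10.3), against 2.64, 3.95 and 3.42 CPM in NKT cells and an NK mean of 41.4 CPM. It was called with both TMM scalings (1.67 ± 0.45 SE) and not on cyclic-loess values (0.76, limma adjusted p = 0.191). Sh2d1b1, an adaptor of SLAM receptors in NK cells with a close copy that could share reads, had 2.72 to 14.1 CPM in the lymphomas, against 1.32, 0.232 and 0.104 CPM in NKT cells, where 5 counts were seen in all. Inpp5d, the lipid phosphatase SHIP-1, was lower, with 86.8 to 139 CPM in the lymphomas against 245, 215 and 201 CPM in NKT cells (−1.04 ± 0.19 SE).

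Of 15 granule genes 4 were higher and 3 lower, near the background shares (3 and 2 under both scalings; median −0.23). Gzmm, a granzyme of innate lymphocytes, had 24.6 to 57.2 CPM in the lymphomas, against 7.92, 13.1 and 13.1 CPM in NKT cells (1.76 ± 0.35 SE). Gzmk had 43.7 to 136 CPM in the lymphomas, against 33.0, 28.0 and 42.7 CPM in NKT cells, and in the smaller deposited peak table its change had the opposite sign (−0.41). Srgn, the proteoglycan that holds granule contents, was lower, with 49.0 to 107 CPM in the lymphomas against 143, 154 and 141 CPM in NKT cells. Cytokine and chemokine genes had 6 higher and 2 lower of 17 with TMM (median 0.37) and 7 higher and 6 lower with chromosome scaling (median 0.02), with 6 and 2 calls shared. Ccl5 had 85.5 to 213 CPM in the lymphomas, against 68.0, 79.0 and 81.0 CPM in NKT cells, and Ccl1 had 146 to 232 CPM against 84.5, 104 and 99.9 CPM. Both lie on chromosome 11, and their changes were 1.08 and 0.98 with TMM and 0.61 and 0.52 with chromosome scaling, where edgeR still called them. Il4, a cytokine that NKT cells release early, had 20.9 to 45.8 CPM in the lymphomas and 29.0, 38.2 and 33.4 CPM in NKT cells and was not called with TMM (−0.15 ± 0.28 SE); with chromosome scaling it was called lower (−0.63).

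Cytokine receptors had 6 lower and 3 higher of 25 (4 and 2 under both scalings; median −0.09, and 0.05 with RLE scaling). Il2ra, the high-affinity chain of the IL-2 receptor, had 27.0 CPM at the lowest, 56.1 CPM at the median and 97.8 CPM at the highest in the lymphomas, against 170.2, 159 and 141 CPM in the NKT libraries (−1.50 ± 0.22 SE, edgeR adjusted p = 1.7e-05). Il7r, the receptor of the survival cytokine IL-7, had 2.38 to 10.1 CPM in 7 lymphomas, 27.9 CPM in lymphoma 2 and 62.5 CPM in lymphoma 8, against 40.9, 58.9 and 42.1 CPM in NKT cells. Lymphoma 8 overlapped the NKT range, and the change of −1.84 ± 0.49 SE was not called by DESeq2. Il12rb2, a chain of the IL-12 receptor, had 72.9 to 143 CPM in the lymphomas, against 192, 196 and 178 CPM in NKT cells. Il2rb, the chain shared by the receptors of IL-2 and IL-15, had a change of 0.07 ± 0.24 SE with TMM and −0.80 with chromosome 15 scaled on its own, where it was called lower.

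Adhesion genes had 5 lower and 3 higher of 16 (2 and 2 under both scalings; median −0.03, and 0.10 with RLE scaling). Itgae, the CD103 integrin of tissue-resident lymphocytes, had 49.9 to 147 CPM in the lymphomas, against 27.1, 41.7 and 45.0 CPM in NKT cells (1.21 ± 0.25 SE with TMM and 0.74 with chromosome scaling). Cd44, a marker of activated and memory cells, had 30.1 to 99.8 CPM in the lymphomas, against 133, 154 and 154 CPM in NKT cells. Of 19 genes of the AP-1, NF-kappaB and NFAT response, 9 were lower and 1 higher, with a median of −0.46. Under both scalings 6 were lower and 1 higher, and under 3 scalings 3 and 1. Crem, a cAMP-responsive factor, had the tightest change of the list: 93.9 to 132 CPM in the lymphomas, against 282, 284 and 300.1 CPM in NKT cells and T and NK means of 229.8 and 266 CPM (−1.34 ± 0.15 SE, edgeR adjusted p = 5.3e-07). Fosb had 113 to 224 CPM in the lymphomas, against 333, 266 and 233 CPM in NKT cells. Among 14 inhibitory and exhaustion genes 2 were lower and 1 higher (median −0.46 with TMM and −0.08 with chromosome scaling). The gene sum of Btla, whose promoter is described above, had 2.72 to 10.2 CPM in the lymphomas, against 27.7, 35.2 and 30.4 CPM in NKT cells, and Lag3 had a change of −0.09 ± 0.22 SE and was not called.

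Cell-cycle genes as a list did not lean to one side: 6 of 31 were higher and 8 lower (5 and 3 under both scalings; median −0.02, and 0.10 with RLE scaling). Mki67, a proliferation marker, had 30.4 to 73.1 CPM in the lymphomas and 54.8, 53.6 and 48.1 CPM in NKT cells and was not called (−0.02 ± 0.21 SE). Of 23 p53 targets, 5 were lower and 1 higher (3 and 1 under both scalings; median −0.26). Tnfrsf10b, the TRAIL receptor that p53 induces, had 9.46 CPM at the lowest, 30.4 CPM at the median and 49.0 CPM at the highest in the lymphomas, against 124, 143 and 133 CPM in the NKT libraries (−2.02 ± 0.29 SE, edgeR adjusted p = 1.1e-05). T and NK means of 67.3 and 50.5 CPM also lay above the highest lymphoma. Mdm2, Bax and Bbc3, well-known p53 targets, had changes of −0.32, −0.02 and −0.18 and were not called.

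Of 11 genes of the BCL2 family, which sets the threshold of apoptosis, 2 were higher and 2 lower, also when 3 scalings were required (median −0.22). Bcl2, which protects from death, fell in all lymphomas and unevenly: lymphomas 1, 2, 5, 6 and 9 had 42.3, 70.8, 43.4, 41.0 and 61.0 CPM, lymphomas 3, 4, 7 and 8 had 171, 211, 174 and 177 CPM, and the NKT libraries had 243, 296 and 287 CPM (−1.33 ± 0.35 SE). T and NK means were 165 and 178 CPM. Bcl2a1d, a protective member with close copies that could share reads, had 1.70 to 8.15 CPM in the lymphomas, against 23.8, 19.9 and 17.9 CPM in NKT cells. Hrk, a killer member on chromosome 5, had 11.6 to 42.2 CPM in the lymphomas, against 3.30, 8.13 and 7.36 CPM in NKT cells (1.68 ± 0.45 SE with TMM and 1.13 with chromosome scaling). Mcl1, a protective member, had 660.4, 556 and 421 CPM in lymphomas 1, 2 and 5 and 115 to 131 CPM in the other lymphomas, against 79.8, 93.9 and 93.1 CPM in NKT cells. Its call (1.56 ± 0.48 SE, edgeR adjusted p = 0.011) was lost without NKT library 1 (1.50, edgeR adjusted p = 0.052).

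Genes recurrently mutated in human peripheral T-cell lymphoma had 14 lower and 2 higher of 33, and 10 lower and 0 higher under both scalings (median −0.41). Under 3 scalings 8 were lower and 0 higher. RLE scaling called 12 lower and 3 higher, and cyclic loess 10 lower and 5 higher. Crebbp, a histone acetyltransferase, had 20.9 to 45.6 CPM in the lymphomas (median 37.6, lowest in lymphoma 5), against 97.0, 74.2 and 82.8 CPM in NKT cells (−1.20 ± 0.20 SE, edgeR adjusted p = 6.8e-05). Idh2, a mitochondrial dehydrogenase, had 12.9 to 21.2 CPM in the lymphomas, against 49.5, 28.5 and 38.4 CPM in NKT cells. Tet3, a DNA demethylase, had 69.5 to 109 CPM in the lymphomas, against 183, 155 and 169 CPM in NKT cells, and the DNA-damage kinase gene Atm had 44.5 to 95.7 CPM against 148, 147 and 121 CPM. Tet2, the family member most often mutated in these tumours, had −0.29 ± 0.22 SE and was not called. The loci named here lie on chromosomes 16, 7, 6 and 9, which all stood lower in the lymphomas, and with chromosome scaling their changes were −0.66, −0.90, −0.77 and −0.56, each still called.

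Gene sums rest on all peaks of a gene. Of the named genes that were called, 45 of 68 kept their call on promoter peaks alone and 54 of 67 in the smaller table. The lists of changed genes for these settings are not complete. Counted on promoter peaks alone, Ubac2, Arhgef3, Prkcq, Rasgrp1, Slamf1, Tcf12, Stat4, Klrd1, Slamf7, Il7r, Il12rb2, Cd44, Fosb, Bcl2, Tnfrsf10b, Raet1e, Atp10a, Trpm8, Stk32c and Gata3 were not called in the same direction. In the smaller deposited peak table, Zbtb16, Ptpn2, Tcf12, Klrd1, Gzmk, Itgae, Stk32c, Gata3, Cd3e and Ctss were not called in the same direction. On cyclic-loess values Cd3e, Cd8b1, Syk, Sh2d1b1 and Gata3 were not called.

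Peaks were also counted within genes, to be read beside the 17.2% of all peaks that were higher and 13.1% that were lower under both scalings. At Gas7, a cytoskeletal protein gene on chromosome 11, 22 of 35 peaks were higher under both scalings and 9 under 3 scalings. Its sum was 297 to 596 CPM in the lymphomas (median 484), against 106, 118 and 124 CPM in NKT cells, with a T mean of 86.8 CPM and an NK mean of 311 CPM (2.03 ± 0.23 SE, edgeR adjusted p = 4.9e-07). At the neighbouring genes Mroh2a and Trpm8 on chromosome 1, 38 of 50 and 31 of 40 peaks were higher (31 and 18 under 3 scalings). Mroh2a had 242 to 859 CPM in the lymphomas, against 177, 92.8 and 190.0 CPM in NKT cells, and NK cells had most, with 1516 CPM. At Stk32c, a kinase gene, 24 of 26 peaks were higher (9 under 3 scalings). At Arnt and Ctss, which are described below, 24 of 37 and 19 of 34 were higher, and none under 3 scalings. In the other direction, Ubac2 had the most lower peaks, 15 of 34 with 4 higher (11 and 1 under 3 scalings), and its sum was 205 to 599 CPM in the lymphomas, highest in lymphoma 8, against 572, 602 and 579.7 CPM in NKT cells. Arhgef3, a guanine nucleotide exchange factor, had 13 of 29 lower and 1 higher (3 and 1 under 3 scalings), and Prkch, a protein kinase C, had 13 of 36 lower and 3 higher (5 and 0 under 3 scalings) with a sum that was not called (−0.40 ± 0.19 SE). At Atp10a, a lipid flippase gene, 11 of 17 peaks were lower (8 under 3 scalings), and its sum was 84.9 to 166 CPM in the lymphomas, against 375, 432 and 427 CPM in NKT cells (−1.73 ± 0.21 SE, edgeR adjusted p = 1.5e-06). At Lncpint, a long noncoding RNA gene that p53 induces, 14 of 26 peaks were lower (9 under 3 scalings), with a sum of 204 to 339 CPM in the lymphomas, against 569, 578 and 555 CPM in NKT cells. At Akap13, 12 of 27 peaks were lower (6 under 3 scalings).

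The genes with the most peaks in their rarer direction had shares close to those of all peaks in several cases. Fgfr2, a fibroblast growth factor receptor, had 7 peaks higher and 6 lower of 47 under both scalings, and a sum that was not called (−0.11 ± 0.18 SE). Itpr1, a calcium channel, had 7 higher and 6 lower of 31 (sum −0.35 ± 0.19 SE), and Fyn had 6 higher and 5 lower of 40. Lrrk1 had 11 higher and 4 lower of 32, and the remodeller Chd7 had 4 higher and 8 lower of 23. The sums of Fgfr2, Itpr1, Fyn, Lrrk1 and Chd7 were not called with TMM. Under 3 scalings 1 peak was higher and 3 lower at Fgfr2, 1 and 2 at Itpr1 and at Fyn, 1 and 1 at Lrrk1, and 2 and 4 at Chd7.

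A short stretch of chromosome 3 differed between lymphomas. In 250-kb bins, 95000 to 96250 kb held 706 peaks (1.15% of all), of which 447 (63.3%) were called higher and 3 lower with TMM. Over chromosome 3 as a whole 29.3% of peaks were called higher with TMM, and over all peaks 23.2%. The stretch was picked after its values had been seen. Its summed CPM relative to the NKT mean was 3.64 in lymphoma 1, 4.75 in lymphoma 2 and 4.21 in lymphoma 5, 0.945 to 1.19 in the other 6, and 0.951 to 1.04 in the NKT libraries. T libraries had 0.846 to 1.01 and NK libraries 1.07 to 1.24. It contains Mcl1 and its neighbours Arnt, the partner of hypoxia-inducible factors, and Ctss, a lysosomal protease. Arnt had 816, 689 and 714 CPM in lymphomas 1, 2 and 5 and 132 to 166 CPM in the others, against 68.0, 88.2 and 88.6 CPM in NKT cells. Over 74 genes of the stretch the median ratio to the NKT mean was 3.31, 7.48 and 5.96 in lymphomas 1, 2 and 5. It was 1.36 to 1.70 in the other 6 lymphomas. The densest 500 kb of the peak table, 95500 to 96000 kb with 372 peaks against a median of 12 per window, lies in the stretch. The part of lymphomas 1, 2 and 5 in the number of peaks there was not tested, so the density is no separate support.

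Most differences were shared by the lymphomas. Of 3168 genes called higher under both TMM scalings with a mean count of at least 20, 2327 (73.5%) had all 9 lymphomas beyond every NKT library, and of 2413 genes called lower, 1980 (82.1%). The median range over the 9 lymphomas was 1.62 log2 units at the higher genes and 1.10 at the lower genes. Since calls of a test choose genes with little overlap, these shares describe the spread and are no separate support.

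Markers of other cells of the liver moved with the lymphomas. Of the markers measured, 4 of 5 for B cells, 3 of 5 for myeloid cells, 3 of 3 for hepatocytes, 4 of 7 for endothelial cells and 1 of 4 for erythroid cells were called higher and 0 were called lower. When 3 scalings were required these counts were 2, 2, 2, 2 and 0. Over all genes, 25.5% were higher with TMM and 8.68% under 3 scalings. The lists held 8, 11, 9, 10 and 8 markers in the same order, and those without a peak were not measured. The summed B-cell markers were 120.4 to 235 CPM in the lymphomas, against 44.2, 55.5 and 55.1 CPM in NKT cells, and 121 to 180.4 CPM in the spleen NK libraries. Hepatocyte markers summed to 36.1 to 91.5 CPM in the lymphomas, against 3.96, 17.4 and 14.6 CPM in NKT cells, and to 32.8 to 64.8 CPM in the NK libraries. The summed myeloid markers were 95.1 to 142 CPM in the lymphomas, against 57.4, 57.9 and 65.3 CPM in NKT cells. No measured marker was at 0 in every lymphoma, and the endothelial gene Tek and the NK gene Ncr1, for example, were at 0 in at least 1 lymphoma each. T-cell-defining genes summed to 558 to 1086 CPM in the lymphomas, against 1099.9, 1114 and 1064 CPM in NKT cells and 459 to 534 CPM in NK cells. NK-defining genes summed to 84.3 to 176 CPM in the lymphomas, against 41.6, 60.4 and 52.5 CPM in NKT cells. NKT-defining genes summed to 347 to 574 CPM in the lymphomas, against 501, 538 and 460.5 CPM in NKT cells and 208 to 237 CPM in T cells. The part of other cells in the differences was not tested.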

How the data were processed

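The assay was ATAC-seq. The deposited values are raw counts of reads per 500-bp peak and library, over 61224 autosomal peaks (mm10) with an annotation of each peak; a smaller deposited set of counts over 27727 peaks served as an alternative. Per the submitters' processing notes MACS2 2.1.2, edgeR 3.24.3 and bedtools were used, while the aligner, the treatment of duplicates and any shift for the Tn5 cut were not given in the sources used here. Peak positions are printed as deposited, and whether the starts count from 0 or 1 is not stated. Lymphomas are numbered 1 to 9 in accession order, which only names them.

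Counts were analysed in R 4.3.3 with edgeR 4.0.16, limma 3.58.1 and the data.table package (version 1.17.8), with TMM scaling, filterByExpr (61220 peaks and 20326 gene sums kept) and 1 quasi-likelihood fit over all 18 libraries in 4 groups, from which lymphoma minus NKT was tested. Intergenic peaks without a gene (9608) entered no gene sum. The biological coefficient of variation was 0.431 for peaks and 0.297 for genes. Scaling was repeated within each chromosome. Alternatives were RLE scaling, library totals, cyclic loess with limma, DESeq2 1.42.0, other filters and samples, counts thinned to at most 670358 per library, promoter peaks only, and each library left out. No 2 libraries of a group agreed within sampling noise: the closest pair differed by a chi-square per degree of freedom of 2.91 among NKT and 3.60 among lymphoma libraries. CPM used a prior count of 2 on the log scale only. The fits were also run on simulated data with known changes, with the same dispersion for all groups, peaks and genes. A spread that differs between lymphomas and NKT libraries, or between peaks and genes, was not simulated.

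The members and the gene lists were chosen with earlier results of these data known. Genes named from a list were taken from its called members with the largest changes, members whose call changes with chromosome scaling, and well-known members that were not called. Over all genes or peaks the named ones had the largest changes among those with a mean count of at least 20, called under 3 scalings, with groups that do not overlap and, for genes, at least 2 peaks; the genes with the most peaks called in 1 direction or in their rarer direction were named as well. The sets of closed and opened promoters and the stretch of chromosome 3 were chosen after their values had been seen. Promoter windows are from RefSeq (GRCm38.p6).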

Additional observations from a re-analysis of the deposited data

Results flagged for a closer look

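In the following values 1 lymphoma stood apart from the other 8. Its gap to the nearest lymphoma, as a share of the range of all 9 on the log2 scale, exceeded the 95% critical value of Dixon's test. Of 135 values tested 9 did so, and chance gives about 1 in 20. The gap was 0.575 of the range for the level of chromosome 15, where lymphoma 2 stood highest. It was 0.67 at Crebbp and 0.546 at Ccl5, where lymphoma 5 stood lowest with 20.9 and 85.5 CPM. Lymphoma 6 stood lowest at Puf60 with 69.9 CPM (0.536) and at Srebf2 with 116 CPM (0.516). Lymphoma 1 stood lowest at Themis with 0.929 CPM (0.55) and at Slamf1 with 8.82 CPM (0.497). At the Akap1 promoter the low value of lymphoma 3 was set off by 0.616 of the range, and at the Pcbp3 promoter the high value of lymphoma 8 (58.5 CPM, against a median of 3.83 CPM) by 0.501. Leaving out the lymphoma that stood apart did not end or turn the calls of these 8 genes and promoters.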

How the results depend on the processing

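The number of peaks called, 26096, was 6818 on cyclic-loess values, 16496 with a mean count of at least 20, 8484 with the deeper libraries thinned to 670358 counts and 7008 in the smaller table. The number of genes called, 9271, was 5186 on cyclic-loess values, 5804 after thinning, 5220 on promoter peaks only and 3926 in the smaller table. Thinning, the count minimum, the promoter peaks and the smaller table reduce counts or peaks by construction; for cyclic loess the cause was not tested. With 1 library left out, peaks called ran from 14458 (without NKT library 2) to 27060 and genes called from 6413 to 9520. The peaks called with TMM within each chromosome ran from 12341 to 24719 and the genes called with TMM within each chromosome from 5641 to 8738, alternatives chosen after seeing the data. The share of called peaks that were higher ran from 45.8% to 65.7%. The chromosomes shifted, 14, numbered 15 with medians over peaks and 0 to 15 with 1 library left out. The share of counts in the strongest peaks differed by −10.7 to −8.02 percentage points with 1 library left out.

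Among the called genes and peaks that are named, the values that changed sign with TMM within each chromosome were those of gene Cbx7 (−0.37), gene Myh9 (−0.38), gene Puf60 (−0.39), gene Slc38a2 (−0.37) and gene Srebf2 (−0.38). Gene Gzmk had −0.41 in the smaller table, and gene Prkcq 0.052 and gene Raet1e 0.94 on promoter peaks only, where fewer peaks enter the sum; the cause was not tested. Of 100 named genes and peaks that were called, 88 kept their call with TMM within each chromosome, 99 with RLE scaling, 99 with library totals, 95 on cyclic-loess values, 98 with DESeq2, 93 of 97 after thinning, 45 of 68 on promoter peaks only and 54 of 67 in the smaller table. Leaving out 1 library ended 0 to 7 of these calls. Part of the 100 were named because they were called under 3 scalings, and others because their call changed with chromosome scaling. The numbers kept with these scalings were thus partly fixed by the choice and are no test.

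No paired analysis was possible because the lymphoma labels carry no replicate numbers. Depth limits most the NK values and the peaks weak in NKT cells, where 1 of 3 libraries is shallow. Counting intervals would cover counting error only. The 3 NKT libraries carry the NKT side of each comparison, and a call missed without 1 of them does not show a smaller difference.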
